A study of Homo sapiens with 12 samples.

Results

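The sgRNA5 list holds the 8346 chromatin immunoprecipitation sequencing (ChIP-seq) peaks called in 1 library, from HEK 293T cells that received dCas9 together with the guide sgRNA5. All 8346 rows of the deposited list were taken, out of 58042 peaks in the 9 lists of the series. HEK 293T is an established human embryonic kidney line. Cells were transfected with dCas9 and the guide and collected 3 days later, fragments averaged 300 bp after sonication, and dCas9 was pulled down through an HA epitope tag. The lists set beside it came from the same line and the same pull-down, with sgRNA4 (13660 peaks, 1 library), sgRNA6 (33611, 1 library), or with sgRNA1, sgRNA2 and sgRNA3 (2 libraries each, between 41 and 1278 peaks a list). With 1 library there is no replicate error for sgRNA5: no value below carries a test between guides, and intervals are exact binomial 95% intervals that cover counting error over peaks only, which are not independent replicates. The library with dCas9 and no guide was not analysed here, and read depth is unknown.

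Cas9 is a bacterial nuclease that a single guide RNA (sgRNA) directs to DNA; dCas9 carries mutations that remove cutting and leave binding. Binding starts at a short protospacer adjacent motif and at the seed, the stretch of guide next to that motif. A short seed match can be enough for transient contact, and for this reason dCas9 pull-downs recover many places besides the intended target. Open chromatin is also easier for the protein to reach. The guide's sequence, its target and a genome of the files' build (hg19) were not used here. Peaks are given by hg19 position, counted from 1, and no gene or motif is assigned to them.

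Most sgRNA5 peaks were low. Scores, the peak caller's own value for each peak and comparable only within this list, ran from 50 to 2318.67 with a median of 66.09; the quartiles were 56.4 and 87.2, and 90% of peaks stayed at or below 119.78. A score of 100 or more was reached by 1423 peaks (17.0%, 16.2 to 17.9), of 200 or more by 148 (1.77%, 1.5 to 2.08), and of 1000 or more by 5. The list is therefore a long low slope with a handful of tall peaks at its head.

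The narrowest peak spanned 250 bp, the median peak 628 bp (quartiles 520 and 816 bp) and the widest 6384 bp. Of all peaks, 1035 (12.4%, 11.7 to 13.1) were at least 1000 bp wide, 35 at least 2000 bp and 3 at least 3000 bp. Taller peaks were wider: Spearman's rho between score and width was 0.475 over the 8346 peaks, given as a description because peaks share 1 library and its depth. Among peaks found with sgRNA5 alone the same rho was 0.192 (n = 2912).

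Peaks of sgRNA5 were then divided by whether they shared at least 1 bp with a peak of another guide. Such a peak was present for 5434 of 8346, or 65.1% (64.1 to 66.1), and 2912 (34.9%) were found with sgRNA5 alone. The sgRNA6 list, the longest at 33611 peaks, met more sgRNA5 peaks than any other. Of sgRNA5 peaks, 57.0% overlapped a sgRNA6 peak, 38.2% a sgRNA4 peak, 9.60% a sgRNA1 peak, 4.74% a sgRNA2 peak and 2.98% a sgRNA3 peak. With the sgRNA6 list left out, the shared part fell to 42.0%. Seen from the other side, sgRNA5 peaks were met by 14.2% of the sgRNA6 list and 23.1% of the sgRNA4 list.

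The commonest pattern after sgRNA5 alone was sgRNA6 as the single other guide (1925 peaks), followed by sgRNA4 with sgRNA6 (1820) and sgRNA4 by itself (511). Overlap with a short list but with neither long one was rare, at 78 peaks. By number of other guides, 2507 peaks overlapped 1, 2114 overlapped 2, 616 overlapped 3, 174 overlapped 4 and 23 overlapped all 5.

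**Figure D1:**
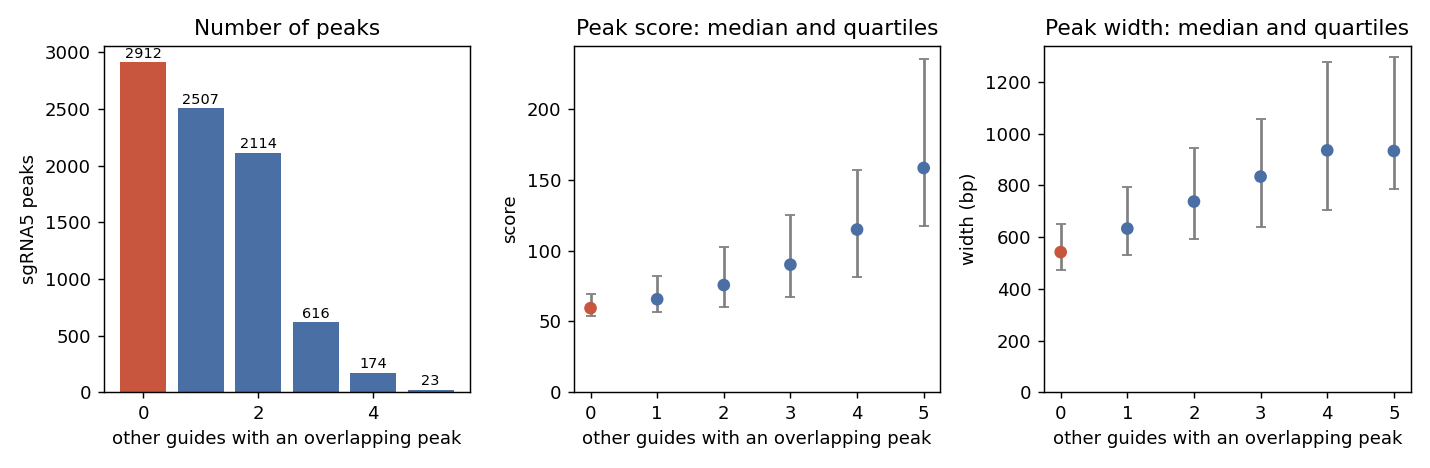
Number, score and width of the sgRNA5 peaks (vertical axes) by how many of the 5 other guides had an overlapping peak (horizontal axis); points are medians, bars run between the quartiles, and red marks peaks found with sgRNA5 alone. The median score climbs from 59.4 with no other guide to 158.47 with all 5, and the median width from 542 to 933 bp.

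Peaks found with sgRNA5 alone were lower and narrower than the shared ones. Their median score was 59.4 (quartiles 53.9 and 69.7) against 72.6 (58.8 and 97.3) for shared peaks, and their median width was 542 bp (472 and 649.25) against 697.5 bp (556.25 and 903.75). The 2 groups overlapped widely, as the quartiles show. Score rose in steps with the number of other guides: the median was 65.7 for 1 guide, 75.7 for 2, 90.2 for 3, 115 for 4 and 158.47 for 5. Width rose alongside up to 4 guides, from 633 bp for 1 to 935.5 bp for 4, and stood at 933 bp for 5.

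A wide peak has more room to overlap another, so score and width were also taken apart. Among peaks of at least 500 and under 700 bp, 49.3% (46.8 to 51.8) of those scored under 60 were shared, and 85% (76.5 to 91.4) of those scored 120 or more. Among peaks scored under 60, 37.7% (34.5 to 41.0) of those under 500 bp were shared, and 90% (81.2 to 95.6) of those of 1000 bp or more. Both quantities thus went with sharing while the other was held in a band. The band of at least 1000 bp was nearly saturated, at between 85.9 and 95% whatever the score. Replacing every peak of every list by the 500 bp around its centre, a setting chosen after the values were seen, left 61.3% of sgRNA5 peaks shared. That rule is nearly the same as asking for centres within 500 bp. It gives a share over all peaks and does not itself separate score from width.

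**Figure D2:**
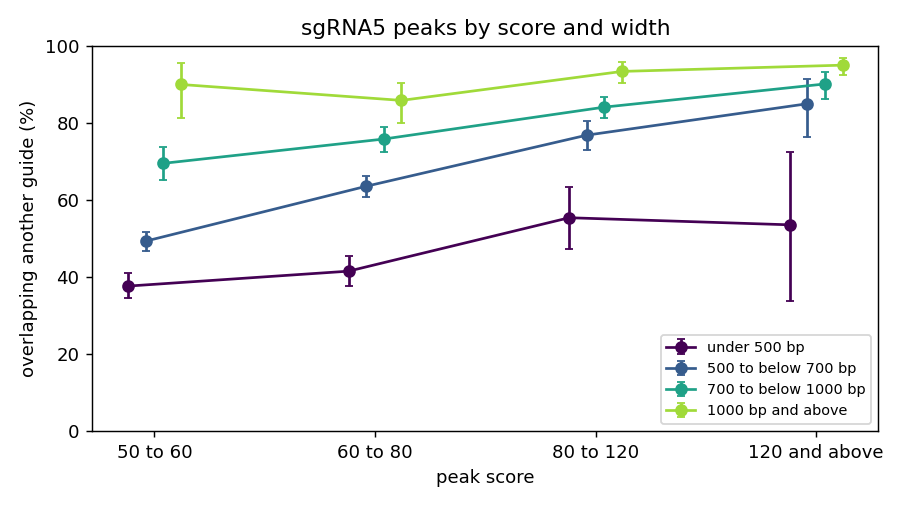
Percentage of sgRNA5 peaks that overlap a peak of another guide (vertical axis) by score band (horizontal axis) and width band (colours), with exact binomial 95% intervals. Peaks under 500 bp stay between 37.7 and 55.4%, and peaks of 1000 bp or more stay at 85.9% or above.

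Where a sgRNA5 peak was shared, the pair of peaks usually sat on one spot. The median distance between centres was 153 bp for sgRNA6 and 151 bp for sgRNA4, and 114, 140 and 111.5 bp for sgRNA1, sgRNA2 and sgRNA3. The sgRNA6 partner was typically the wider of the pair, 1.24 times the sgRNA5 width at the median, and covered 91.2% of the sgRNA5 peak. The sgRNA3 partner was narrower, at 0.841 times. When 50% of both peaks had to overlap, 4342 peaks (52.0%) remained shared.

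Some peaks found with sgRNA5 alone lay near a peak of another guide without touching it. The gap to the closest such peak was 10.2 kb at the median (quartiles 2.17 and 34.9 kb) and at most 1.05 Mb. It was no more than 500 bp for 312 of the 2912 (10.7%, 9.61 to 11.9), no more than 1 kb for 482 (16.6%) and no more than 10 kb for 1445 (49.6%, 47.8 to 51.5). The division into shared and alone therefore includes near misses. The share of arbitrary positions that would lie as near to the other guides' peaks was not computed.

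Among the highest peaks, sharing was the rule. Of the 100 highest sgRNA5 peaks, scored 222.57 or more, 92 (84.8 to 96.5%) overlapped a peak of another guide, against the 65.1% of the whole list. With the list cut by score into 4 equal parts, shared peaks made up 48.2% of the lowest, then 55.8, 70.9 and 85.6% of the highest. In the sgRNA4 list 45 of the 100 highest peaks were shared (35.0 to 55.3%) against 53.1% of that list, and in the sgRNA6 list 28 (19.5 to 37.9%) against 27.1%. Further down, sharing exceeded the whole-list level in these lists too: among the 1000 highest it was 66.7% for sgRNA4 and 57.5% for sgRNA6, with 89.9% for sgRNA5. Each guide was searched against a different set of lists, which itself moves these shares.

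The lists of sgRNA1, sgRNA2 and sgRNA3 give all 3 long lists the same search. Of the 100 highest peaks, 61 of sgRNA5 (50.7 to 70.6%) overlapped at least 1 of them, 19 of sgRNA4 (11.8 to 28.1%) and 13 of sgRNA6 (7.11 to 21.2%). Over the whole lists the shares were 14.1, 8.78 and 4.50%. Of the 20 highest, the counts were 14 for sgRNA5, 2 for sgRNA4 and 0 for sgRNA6. With 50% of both peaks overlapping, 54, 14 and 10 of the 100 highest were met. The overlap came mostly through replicate 2 of the short lists: with replicate 2 alone 61 of sgRNA5, 17 of sgRNA4 and 13 of sgRNA6 were met, and with replicate 1 alone 5, 3 and 1. Counting only regions present in both replicates, 4, 1 and 1 were met. These are single libraries of unequal length, so the difference between guides could not be tested against replicate spread.

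**Figure D3:**
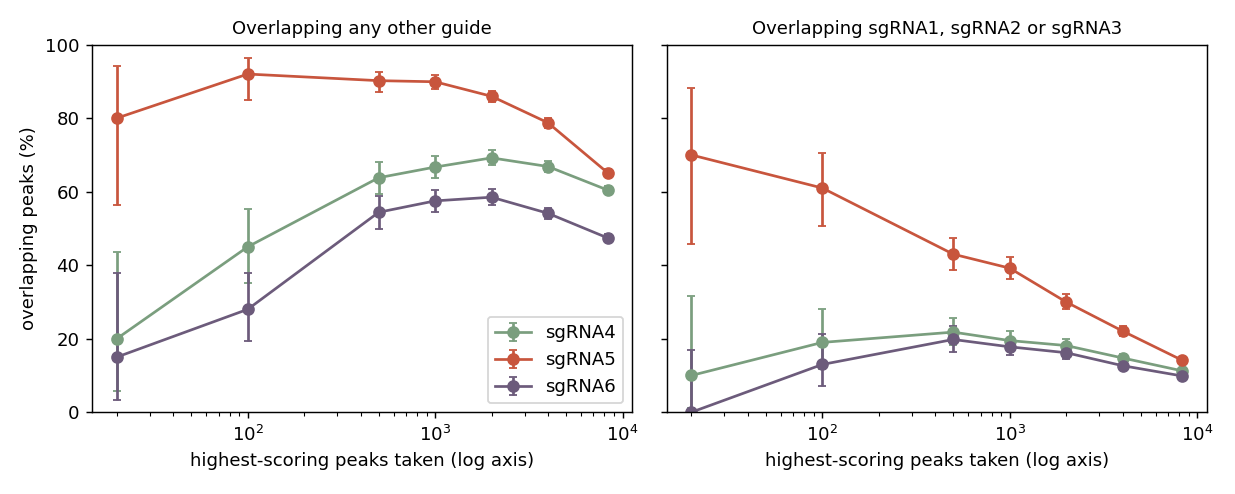
Percentage of peaks overlapping a peak of another guide (vertical axis) among the highest-scoring peaks of the sgRNA4, sgRNA5 and sgRNA6 lists (horizontal log axis, number of peaks taken), with exact binomial 95% intervals; the left panel searches all other guides and the right panel sgRNA1, sgRNA2 and sgRNA3 only. For sgRNA5 the share is 80% in the 20 highest and 92% in the 100 highest, while for sgRNA4 and sgRNA6 it is 20 and 15% in the 20 highest and 66.7 and 57.5% in the 1000 highest.

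The short lists did not contribute evenly at the head of the sgRNA5 list. A sgRNA3 peak lay at 12 of the 20 highest and 35 of the 100 highest sgRNA5 peaks, although only 2.98% of the list overlapped sgRNA3. A sgRNA1 peak lay at 11 and 45 (9.60% of the list), and a sgRNA2 peak at 2 and 21 (4.74% of the list). Both sgRNA1 and sgRNA3 met 22 of the 100 highest, a pattern that at most 2.98% of the list, the share overlapping sgRNA3, can hold. These overlaps came almost wholly from replicate 2. Of the 100 highest, replicate 1 met 1 for sgRNA1 and 2 for sgRNA3, and replicate 2 met 45 and 35.

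Replicates of the short lists differed in how much of them fell on sgRNA5 peaks. For sgRNA3, 5 of 41 replicate 1 peaks (12.2%, 4.08 to 26.2) and 246 of 382 replicate 2 peaks (64.4%, 59.4 to 69.2) overlapped a sgRNA5 peak. For sgRNA1 the counts were 12 of 96 (12.5%, 6.63 to 20.8) and 778 of 1278 (60.9%, 58.1 to 63.6). For sgRNA2 the replicates were close, at 34 of 58 (58.6%, 44.9 to 71.4) and 358 of 570 (62.8%, 58.7 to 66.8). Only 7 sgRNA5 peaks met both replicates of sgRNA1, 12 both of sgRNA2 and 3 both of sgRNA3. The 12 that met both sgRNA2 replicates had a median score of 174 (the other sgRNA5 peaks, 66.09) and ranks from 1 to 5939.

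The 20 highest peaks spread over 14 chromosomes, with 5 on chromosome 1, and 4 of them were found with sgRNA5 alone. The tallest, of score 2318.67 on chromosome 15 at 68132346 to 68133278, was also the only one of the 20 with a peak in all 8 other lists. After the first 5 the score dropped from 1102.08 to 689.27.

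Among the shared ones, the peak ranked 7 lay on chromosome 1 at 148598126 to 148599715 and scored 647.63. It ranked 62 in the sgRNA6 list and 6 in replicate 2 of sgRNA3, so it stood high in 3 lists. The peak ranked 10, on chromosome 13 at 67804020 to 67805754 (514.88), ranked 53 with sgRNA6 but 8063 with sgRNA4 and 321 in replicate 2 of sgRNA3. Height in one list thus did not carry over to each of the others. The peak ranked 12, on chromosome 9 at 66492866 to 66494922 (503.75), stood at rank 7 in replicate 2 of both sgRNA1 and sgRNA2 and at rank 11 in replicate 2 of sgRNA3.

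Other high peaks met few or lower-ranked counterparts. That on chromosome 18 at 19773082 to 19773930 (445.38, rank 15) overlapped a sgRNA6 peak ranked 12654 and a sgRNA3 replicate 2 peak ranked 198 of 382. That on chromosome 7 at 26897058 to 26897858 (439.56, rank 16) overlapped a single peak, of sgRNA3 replicate 2, at rank 63 of 382, and none in the long lists. It was the only one of the 100 highest whose partners lay in the short lists alone.

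**Figure D4:**
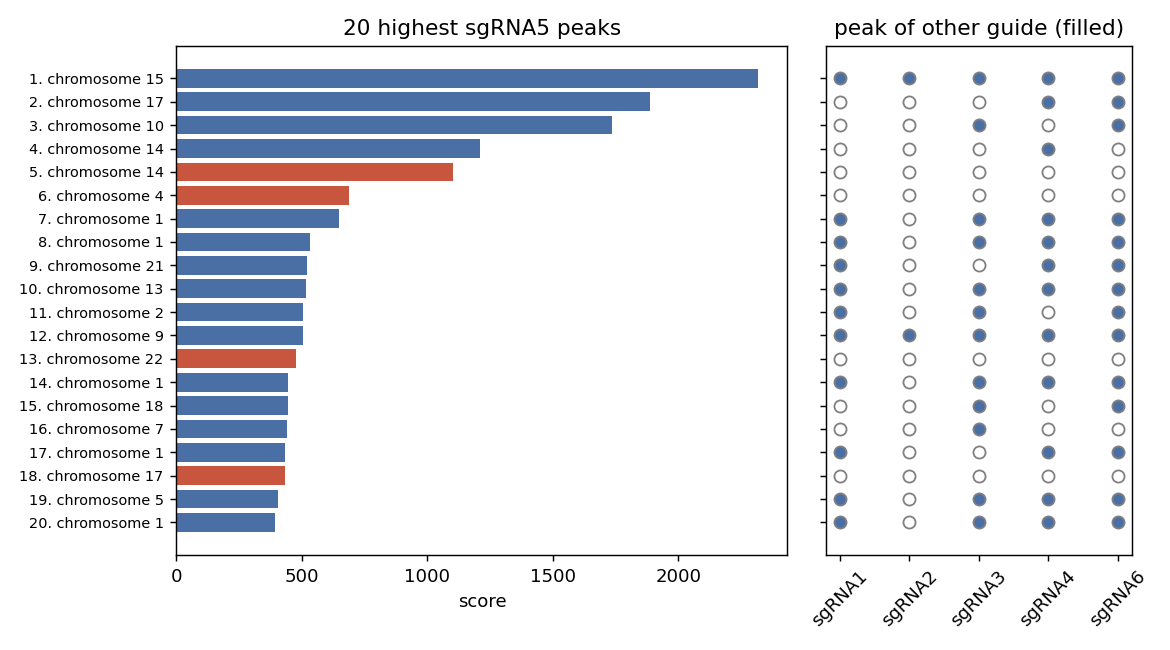
Score (horizontal axis, left) of the 20 highest sgRNA5 peaks in order of rank, labelled by chromosome, and the other guides with an overlapping peak (filled circles, right); red bars are peaks found with sgRNA5 alone. The 4 red bars are at ranks 5, 6, 13 and 18, and sgRNA2 is filled at 2 peaks, those ranked 1 and 12.

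Peaks that scored high and were found with sgRNA5 alone were few, 8 among the 100 highest. After that on chromosome 14 at 102038080 to 102039174 (1102.08, rank 5), the next lay on chromosome 4 at 2947364 to 2948255 (689.27, rank 6), 56 kb from the closest peak of any other guide. It was followed by a chromosome 22 peak at 29885024 to 29886328 (477.25, rank 13). Rank 18 was held by a chromosome 17 peak at 1642025 to 1642968 (430.88). The chromosome 17 peak had another guide's peak 1.36 kb away, so it belongs to the near misses.

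The remaining ones of the 10 highest scored between 215.44 and 384.01. The most isolated lay on chromosome 7 at 96338604 to 96339517 (349.68), with 288 kb to the closest peak of another guide. The narrowest of these, of 328 bp, was on chromosome 1 at 234736022 to 234736349 (215.44). A chromosome X peak at 62519501 to 62519907 (332.11) spanned 407 bp. They differ from the general pattern in which tall peaks were wide. A second peak on the distal part of chromosome 14, at 104691244 to 104692860 (384.01), lay with that at 102038080 and the shared peak at 105742053 to 105744051 (1210.73, rank 4) on the last few megabases of this chromosome.

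At the other extreme, 23 sgRNA5 peaks overlapped a peak of each of the 5 other guides, with either replicate counting for sgRNA1, sgRNA2 and sgRNA3. Their scores ran from 59.23 to 2318.67 (median 158.47) and their ranks from 1 to 5503, and 8 were among the 100 highest. Being found with every guide was thus not limited to tall peaks. Of those further down, the peak on chromosome 13 at 95200796 to 95202604 scored 348.0 (rank 32), that on chromosome 7 at 77427309 to 77428880 scored 224 (rank 99), and that on chromosome 18 at 32620994 to 32622172 scored 212 (rank 120). Over the whole list only 7, 12 and 3 sgRNA5 peaks met both replicates of sgRNA1, sgRNA2 and sgRNA3. Most of the 23 therefore met only 1 replicate of sgRNA1, and most met only 1 of sgRNA3.

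The 5 widest sgRNA5 peaks were all shared, as were 956 of the 1035 peaks of at least 1000 bp. Chromosome 1, which held 13.1% of the list, carried 4 of the 5. The widest (6384 bp, chromosome 1 at 161418529 to 161424912) scored only 132.3, at rank 616. The next, of 3320 bp, lay close by at 161429980 to 161433299 and overlapped sgRNA6 alone. The peak of 3211 bp on chromosome 1 at 148927840 to 148931050 met sgRNA2, sgRNA4 and sgRNA6, and the peak of 2839 bp on chromosome 13 at 80912816 to 80915654 met sgRNA4 and sgRNA6.

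Distances between peaks along the chromosomes varied widely. No expected spacing was computed, so clustering was not tested. The distance to the closest peak of the same list was 48.8 kb at the median (quartiles 13.1 and 135 kb), and 786 peaks (9.42%) had a neighbour within 1 kb. Shared peaks had closer neighbours, at a median of 42.5 kb against 60.7 kb for peaks found with sgRNA5 alone. A neighbour within 1 kb was present for 12.1% of shared and 4.36% of alone peaks. The difference in medians of 18.2 kb was 10.4 kb with 50% of both peaks overlapping, 10.9 kb with peaks within 1 kb merged, and 32.8 kb when each list was cut to its higher-scoring 50%. In the longer sgRNA4 and sgRNA6 lists the median distance was 20.6 and 7.33 kb, and distances shrink as a list grows.

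Of the 404 neighbouring pairs no more than 1 kb apart, 301 were shared on both sides, 26 were alone on both, and 77 were mixed. In 192 pairs both members touched one and the same peak of sgRNA4 or sgRNA6. For those pairs, what is 1 peak in a longer list is split in the sgRNA5 list.

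Joining peaks with gaps of up to 10 kb gave 6492 single peaks and 833 groups, the largest of 9 members. That group spanned 23.8 kb of chromosome 19, at 50595634 to 50619478, and 7 of its 9 peaks were found with sgRNA5 alone. The stretch held 0 sgRNA4 peaks and 1 sgRNA6 peak; 12 of the 138 groups of at least 3 peaks, this one included, held no sgRNA4 and at most 1 sgRNA6 peak. Its members were of middling height, with scores from 53.93 to 128.23 (ranks 670 to 6932) and widths from 266 to 861 bp, separated by gaps of 0.396 to 4.618 kb. The first and highest lay at 50595634 to 50596393 (128.23), followed by 50601012 to 50601711 (121.64) and 50602108 to 50602850 (109.37). One member, at 50607551 to 50607948, overlapped a sgRNA3 peak, and one, at 50615576 to 50616272, a sgRNA6 peak.

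The other large groups were mostly shared. The next, of 6 peaks, was also on chromosome 19, at 50353708 to 50381558, with all 6 shared. A chromosome 17 group of 5, at 19084449 to 19100502, and a chromosome 1 group of 5, at 161415037 to 161442133, had no peak found with sgRNA5 alone. The group of 5 at 61903787 to 61920855 of chromosome 17 had 1. Over the 138 groups of at least 3 peaks, 62 were shared throughout and 7 were alone throughout. The list had 65.1% shared and 34.9% alone peaks, but these are shares of single peaks. They are not the level to expect for whole groups, and no such level was computed.

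Chromosomes differed in density by several fold. Over the span up to the last peak of any list, sgRNA5 had 2.75 peaks per Mb. Chromosome 19, the most gene-dense human chromosome, had 9.21, chromosome 17 had 7.74, chromosome 22 had 5.21, chromosome 1 had 4.39 and chromosome 16 had 4.09. The lowest autosomes were 18, with 1.26, and 4, with 1.28. Chromosome X had 1.47, and 1 peak lay on Y, whose span up to the last peak of any list is only 2.6 Mb.

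Alone and shared peaks followed the same broad order of chromosomes but not to the same degree. Each class was set against its own density over all chromosomes, 1.79 per Mb for shared and 0.959 per Mb for alone peaks. On chromosome 19 shared peaks reached 3.51 times and alone peaks 3.05 times that density, and on chromosome 17 they reached 3.11 and 2.27 times. On chromosome 13 it was 0.530 times for shared and 0.852 times for alone peaks. The share found with sgRNA5 alone was accordingly smallest on chromosome 17, at 28.2% (24.7 to 31.9), and largest among the autosomes on chromosome 13, at 46.3% (39.3 to 53.4), around the 34.9% of the list. The next largest shares were on chromosomes 18, 10 and 20, at 42.9, 42.5 and 42.4%, the first with an interval (32.9 to 53.2) that includes the value of the list.

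**Figure D5:**
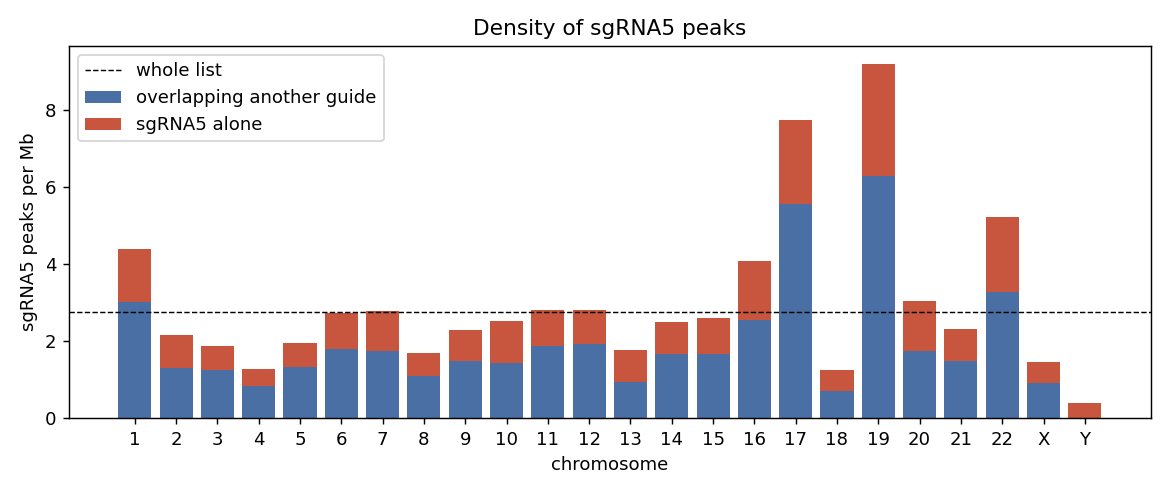
sgRNA5 peaks per Mb (vertical axis) on each chromosome (horizontal axis), divided into peaks overlapping another guide (blue) and peaks found with sgRNA5 alone (red); the dashed line is the density of the whole list, 2.75 per Mb. Chromosome 19 reaches 9.21 per Mb and chromosome 17 reaches 7.74.

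Within chromosomes, 2042 of 3051 windows of 1 Mb (66.9%) held a sgRNA5 peak, with a median of 3. The 183 windows with at least 10 peaks held 31.0% of the list. The fullest was 30 to 31 Mb of chromosome 16, with 35 peaks, 5 of them alone, where sgRNA4 had 64 and sgRNA6 had 82. Then came 50 to 51 Mb of chromosome 19 with 31 peaks (12 alone), the window of the 9-member group, in which sgRNA4 also had 31. Windows at 155 Mb of chromosome 1 (28 peaks), 49 Mb of chromosome 19 (26) and 46 Mb of chromosome 17 (25) followed.

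The longest stretches with no sgRNA5 peak were 22.2 Mb on chromosome 1 (121261789 to 143457457), 19.1 Mb on chromosome 9 (46844977 to 65904063) and 13.7 Mb on chromosome 16 (32927067 to 46654711). These lie around the centromeres, where heterochromatin leaves large unsequenced blocks in the assembly, and sgRNA4 and sgRNA6 had between 0 and 6 peaks there. The following ones were on the arms, 10.7 Mb of chromosome 18 (61090375 to 71815292) and 10.0 Mb of chromosome 2 (75186351 to 85197378), in which sgRNA6 had 8 and 20 peaks.

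Chromosome ends held more peaks than their length. Within 5 Mb of either end, 7.66% of the span with unsequenced parts counted in, lay 12.9% of sgRNA5 peaks (12.2 to 13.6): 16.1% (14.8 to 17.5) of those found with sgRNA5 alone and 11.2% (10.3 to 12.0) of the shared ones. Within 1 Mb the shares were 3.71% (3.05 to 4.46) and 2.71% (2.29 to 3.17), for 1.58% of the span. Within 2 Mb they were 7.73% (6.78 to 8.76) and 5.93% (5.31 to 6.59), for 3.115% of the span. The intervals of alone and shared peaks were apart at 5 and 2 Mb and overlapped at 1 Mb. Counts were smallest at 1 Mb (108 alone and 147 shared peaks), so that overlap does not show that the difference fades there.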

How the data were processed

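HA ChIP-seq peak lists of 9 libraries were used. Each gives chromosome, start, end, name and score. The score is deposited as the peak caller gave it, with no value below 50 in any list; it ranks peaks within 1 list only. Per the submitters' processing notes, Bowtie, Bowtie2, MACS and the build hg19 were used; no version is named there, and the sources used here give no settings. Peaks were called per library.

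Starts were shifted by 1 to count from 1. Replicates of sgRNA1, sgRNA2 and sgRNA3 were merged to 1 list per guide where peaks shared a base. Overlap meant at least 1 bp. The end of each chromosome was set to the end of its last peak in the 9 lists. Intervals are Clopper-Pearson 95%. Overlap calls were tested on simulated data (0 of 402 wrong). Python 3.11.15, numpy 2.4.6, pandas 2.3.3, scipy 1.17.1 and matplotlib 3.10.9 were used.

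Named regions were the 20 highest peaks, the 10 highest alone, the 10 highest met by all 5 other guides, the 5 widest, and the 5 largest groups, fullest windows and longest empty stretches. The list, this rule and the comparisons were chosen with earlier results of these data known. No sequence was printed, as no genome of the build was used.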

Additional observations from a re-analysis of the deposited data

How the results depend on the processing

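Of 52 alternative values for 7 results, none changed direction, but a direction was defined only for differences of medians and chromosome ratios. The shares of peaks overlapping another guide could only stay or move. A share or ratio was counted as moved when it left the exact 95% interval of the reported one, and a difference of medians when either group's median left its own 95% interval, so a difference of nearly the same size could be counted as moved. By this rule 31 values stayed and 21 moved. Those that stayed include every value with replicate 1, replicate 2 or unreplicated peaks of the short lists left out. Such settings could hardly move a value. Only 78 sgRNA5 peaks, 1 of them among the 100 highest, overlapped a short list but neither long one. With the long lists alone 64.2% were shared, inside the interval of the reported share (64.1 to 66.1). The replicate settings therefore say little about stability. The shared part of the list (65.1%) was 52.0% with 50% of both peaks overlapping, 61.3% with centres within 500 bp, 66.2% when each list was cut to its higher-scoring 50%, 42.0% without the sgRNA6 list, 59.0% without the sgRNA4 list and 61.3% with 500 bp around each centre. The last setting was chosen after the data were seen. It is nearly the same rule as centres within 500 bp, so it is not a separate check. The excess of median score in shared over alone peaks (13.2) was 15.1 with 50% of both peaks overlapping, 13.1 over the higher 50%, 14.25 with peaks within 1000 bp merged and 16.4 without sgRNA6. The excess of median width (155.5 bp) was 187, 152, 171 and 186 bp with 50% of both overlapping, centres within 500 bp, the higher 50% and merging, 175 bp without sgRNA6 and 155 bp without sgRNA4. The excess in distance to the next peak of alone over shared peaks (18.2 kb) was 10.4, 32.8 and 10.9 kb with 50% of both overlapping, the higher 50% and merging, and 12.2 kb without sgRNA6. Of the 100 highest peaks, 83% were shared without sgRNA6. Leaving out a guide searches fewer peaks by construction; for the other settings the cause was not tested. Without replicate 1 or replicate 2 of the short lists, 65.1 and 64.2% were shared. No paired analysis was possible because sgRNA5 is 1 library with no replicate number. Read depth is unknown, so its effect on the number of peaks could not be measured.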

Other observations

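The 8346 sgRNA5 peaks carried only 3961 distinct scores. The score 51.64 occurred 192 times, at widths from 383 to 787 bp, and 46.9% of those peaks were shared. The score 60.09 occurred 102 times (60.8% shared) and the score 57.03 occurred 96 times (38.5% shared). The last fell in a tight range of widths, from 372 to 492 bp. Of all 884 peaks under 500 bp scored under 60, 37.7% were shared. Of the 2086 lowest peaks of the list, scored 50 to 56.36, 48.2% were shared. Of the next 2087, scored up to 66.09, 55.8% were shared. The shares at 51.64 and 57.03 were thus near those of peaks of similar score or width. In all, 2651 peaks had a score that at least 5 peaks carried. The order of peaks within such ties is not resolved.

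Of 15 peaks under 500 bp with a score of at least 150, limits chosen after the values were seen, 9 were found with sgRNA5 alone (60%, exact 95% interval 32.3 to 83.7), about the share among all 1678 peaks under 500 bp (59.0%, 56.6 to 61.4).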
